A study of Mus musculus with 7 samples.

Results

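The genes that write and read methylation of lysine 9 of histone H3 (H3K9) were examined in cortical neuron cultures 24 h after a KCl pulse and in the hippocampus after an enriched environment. They were chosen by name and are 10 genes: the methyltransferases Suv39h1, Suv39h2, Ehmt1, Ehmt2, Setdb1 and Setdb2, the heterochromatin protein 1 (HP1) genes Cbx1, Cbx3 and Cbx5, and Trim28. In the RNA data 8 of the 10 had splicing events in both replicate tables, among 6114 such genes in all, and these held 27 of the 11814 events matched between the tables. All 10 were among the 34614 gene models over which H3K9me3 was counted.

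Suv39h1 and Suv39h2 add the trimethyl mark of silent heterochromatin, whereas Ehmt1 (GLP) and Ehmt2 (G9a) work as a heterodimer that adds mostly mono- and dimethyl marks in euchromatin. Setdb1 trimethylates H3K9 where zinc finger proteins of the KRAB class bring it to DNA through the corepressor Trim28 (KAP1), and Setdb2 is a related enzyme. The HP1 proteins beta, gamma and alpha, encoded by Cbx1, Cbx3 and Cbx5, bind methylated H3K9 through a chromodomain and compact the chromatin.

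The cultures were wild-type ICR cortical neurons from embryonic day 16, treated on day 11 in culture. The 2 KCl libraries came from cultures held for 10 min at 50 mM KCl, which depolarizes neurons, and harvested 24 h later, and the 2 Control libraries from cultures given the control buffer. For the ChIP, wild-type C57BL/6 mice of 3 months spent 24 h in an enriched cage and a further 1 week in the home cage (EE, 2 libraries), against mice kept in the home cage (HomeCage, 1 library), and hippocampal chromatin was precipitated with an H3K9me3 antibody. Nothing in the labels tells if a replicate is its own culture or animal, or how many animals a ChIP library holds, so the p-values cover the spread among these libraries, which may be technical. The question set by the design is which splicing events and which H3K9me3 levels differ late after neuronal activity. RNA and chromatin come from different tissues, and no value of one was tested against the other.

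Event reads came to 3643165 and 4666850 in KCl replicates 1 and 2, against 3566066 and 5385345 in Control replicates 1 and 2. The libraries did not group cleanly by treatment. Across genes, which are not independent replicates, Pearson's r of log levels was 0.900 between the KCl libraries and 0.913 between the Control libraries, but 0.944 between KCl replicate 2 and Control replicate 2. The markers of the cultured cells differed as well: 8 of 15 listed neuron markers were measured, and their summed level in CPM (read counts scaled to a common library total) was 1984 and 6695 in KCl, against 23980 and 20220 CPM in Control. All 8 were lower in KCl, with Dcx, Gad1, Gap43, Map2, Rbfox3, Snap25, Stmn2 and Syt1 as the genes measured. The 6 measured astrocyte markers of 10 summed to 46830 and 21440 CPM in KCl, against 16780 and 11280 CPM in Control, and all 6 were higher. Oligodendrocyte markers (6 of 12 measured) summed to 2002 and 1099 CPM in KCl against 321.9 and 341.8 CPM in Control, mesenchymal and vascular markers (3 of 8) to 2902 and 2240 CPM against 431.3 and 517.3 CPM, and progenitor and cycling markers (4 of 10) to 611.9 and 688.4 CPM against 198.6 and 391.2 CPM. No microglia marker of the 8 listed was measured. No marker passed edgeR's test across all genes. In such bulk samples, fewer cells of a type and less RNA per cell cannot be told apart, and the part of these differences in the splicing and level results that follow was not tested. The ChIP tracks held 13008562 and 8058236 fragments in EE and 6187162 in HomeCage.

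No splicing event of these genes passed the test between KCl and Control. The lowest unadjusted p-values lay in Ehmt1, where a few skipping reads of 1 exon appeared in KCl only, and in a retained intron event of Ehmt2. The Ehmt2 event had more inclusion reads in both KCl libraries. The Ehmt2 cassette exon and alternative 3′ splice site that overlap it had less inclusion there, with unadjusted p-values of 0.304 and 0.36 in edgeR's test. Inclusion is given as the inclusion read share, the inclusion reads in percent of the inclusion and skipping reads of an event. The effective lengths of the forms are not given, so libraries are compared within an event and events are not ranked against each other. Of the 27 events, 12 were cassette exons, 3 mutually exclusive exons, 4 retained introns, 4 alternative 5′ splice sites and 4 alternative 3′ splice sites. With a minimum mean of 1 read for either form, 22 events were tested, and edgeR's quasi-likelihood test called 0 of them, as it called 0 of all 10088 events tested (0%). At an unadjusted p under 0.05 there were 3 member events (13.6%), against 928 of all events (9.2%), and DESeq2 and limma also called 0 member events at the adjusted threshold of 0.05. For 11 of the 22 (50%), the KCl shares did not overlap the Control shares, against 40.7% of all events tested. KCl was higher in 3 of the 11, where 21.2% of all events lay, and lower in 8, where 19.5% of all events lay. These counts treat rows that share reads as separate events. The 3 with a low p include a 64-base and a 67-base form of 1 Ehmt1 exon, with the same skipping reads. The 8 include these, a 73-base form of that exon, and the Ehmt2 cassette exon and alternative 3′ splice site, which share skipping reads. All forms of the Ehmt1 exon met the minimum mean for skipping reads only through the KCl libraries, which fixed their direction. The median log2 odds ratio of the members was −0.18, against 0.04 over all events, and their median size without sign was 0.55, against 0.79. In the authors' deposited tables, which compare KCl with Control within a replicate number, 0 of 38 member rows of replicate 1 and 0 of 45 of replicate 2 had an FDR under 0.05, against 2.26% and 0.828% of all rows.

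**Figure D1:**
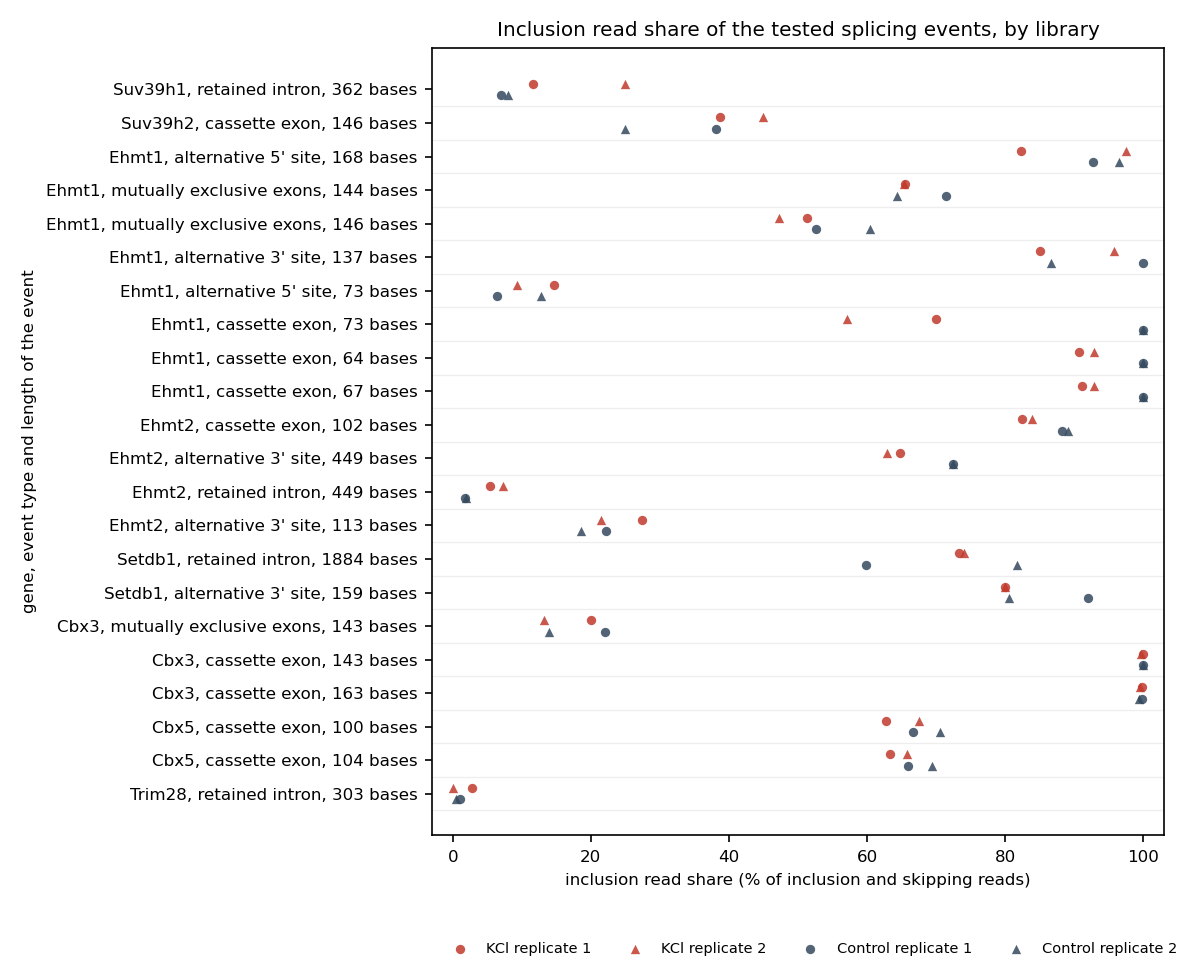
The inclusion read share (percent, horizontal axis) of the 22 tested events is plotted for each library, KCl in red above Control in dark blue, with circles for replicate 1 and triangles for replicate 2. The Ehmt2 cassette exon of 102 bases lies at 82.5% and 83.9% in KCl and at 88.3% and 89.2% in Control, and the groups overlap in 11 of the 22 rows. Mutually exclusive pairs are labelled with the length of the first listed exon. For the Ehmt1 pairs, by the read matches given in the text, the share is that of the other exon.

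Ehmt2 encodes G9a and lies on the plus strand at chr17:34898463-34914073 (GRCm38). Its cassette exon of 102 bases, a multiple of 3, is at chr17:34905610-34905711, 7.15 kb from the 5′ end of the gene. Its inclusion and skipping reads were 400 and 85 in KCl replicate 1 and 329 and 63 in KCl replicate 2, against 324 and 43 in Control replicate 1 and 362 and 44 in Control replicate 2. The inclusion read share was thus 82.5% and 83.9% in KCl and 88.3% and 89.2% in Control, or 83.2 ± 1.03% against 88.7 ± 0.62% (SD, n = 2 each). Both KCl libraries were below both Control libraries, but the log2 odds ratio of −0.67 (SE 0.63) did not pass edgeR's test (adjusted p = 0.875). Ehmt2 is known to make isoforms that differ by an alternative exon whose use changes as neurons differentiate; whether the 102-base exon is that exon was not checked.

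A pair of further Ehmt2 events begin at the same base and span 449 bases to position 34906058. The alternative 3′ splice site uses the same skipping reads as the cassette exon, so the rows are not independent. Its share was 64.7% and 62.9% in KCl and 72.4% and 72.5% in Control, with a log2 odds ratio of −0.57 (SE 0.61, adjusted p = 0.901). The retained intron event has this span too, which takes in the cassette exon and is thus longer than the intron. Its inclusion reads were 14 of 259 and 18 of 249 reads in KCl, against 4 of 217 and 5 of 251 reads in Control. The share was 6.32 ± 1.29% in KCl and 1.92 ± 0.11% in Control (SD, n = 2 each), with no overlap. The log2 odds ratio of 1.75 (SE 0.77) was the nearest to a call in Ehmt2, with an unadjusted p of 0.0342 by edgeR and an adjusted p of 0.491. For all 3 rows both KCl libraries thus lay on the same side of both Control libraries, and part of their reads is shared. Elsewhere in Ehmt2, the alternative 3′ splice site at chr17:34906953-34907065 overlapped between groups (27.4% and 21.4% in KCl, 22.2% and 18.6% in Control). An alternative 5′ splice site stayed under 1% and a cassette exon of 116 bases at 99.2% or more in every library.

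Ehmt1 encodes GLP, the partner of G9a, and lies on the minus strand at chr2:24790769-24919643. It held the most events of the 10 genes, with 10 of the 27. Its cassette exon of 64 bases at chr2:24887003-24887066 had 29 inclusion and 3 skipping reads in KCl replicate 1 and 39 and 3 in KCl replicate 2, against 29 and 41 inclusion reads with 0 skipping reads in Control replicates 1 and 2. The exon was included in 90.6% and 92.9% of reads in KCl and in 100% in both Control libraries, so the groups did not overlap. The difference rests on 3 skipping reads in each KCl library. With 0 in Control, the exon met the minimum mean of 1 skipping read only through KCl. Its direction was thus fixed by the filter, and its p-value is no support for a difference. In edgeR's test the unadjusted p was 0.0221, and its adjusted p of 0.446 was the smallest among the 22 events. A 67-base form of the exon, ending at position 24887069, was listed with the same skipping reads and had an adjusted p of 0.451. A 73-base form, with a mean below 10 reads, had 7 inclusion and 3 skipping reads in KCl replicate 1 and 4 and 3 in KCl replicate 2, against 2 and 6 inclusion reads and no skipping reads in Control.

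The exon of Ehmt1 at chr2:24840636-24840779, 144 bases and a multiple of 3, was listed on 2 rows in each table, which their coordinates do not tell apart. With the rows summed, its share was 91.4% and 90.8% in KCl and 83.5% and 87.9% in Control. Both KCl libraries were above both Control libraries, with a log2 odds ratio of 0.74 (SE 0.67), and the adjusted p in edgeR's test with such rows summed was 0.867. The row with most of the skipping reads had 87.82% and 87.33% in KCl and 78.95% and 81.85% in Control. Whether the 2 rows count some of the same reads was not checked, so the summed share may not be that of the exon. The alternative 3′ splice site at chr2:24863772-24863929, also on 2 rows in each table, went the other way when summed, at 35.6% and 55% in KCl and 62.7% and 55.6% in Control (log2 odds ratio −0.75, SE 0.73, adjusted p = 0.887). Its 2 rows hold the same inclusion reads, 13 and 44 in KCl and 16 and 42 in Control, which the sum counts 2 times. The summed shares are thus too high, and the odds ratio and SE rest on repeated reads. KCl replicate 2 and Control replicate 2 nearly touched there, and 1 of its rows in the authors' deposited table of replicate 1 had an FDR of 0.634, the lowest of all member rows. The other 2 exons with rows summed, at chr2:24847944-24848089 and chr2:24852665-24852802, were included in 98.5% or more of reads in every library. The 144-base exon and chr2:24847944-24848089 were also listed as a mutually exclusive pair. Its inclusion reads, 123 and 174 in KCl and 105 and 222 in Control, equal cassette inclusion reads of chr2:24847944-24848089. The pair's share is thus that of this exon. It overlapped between the groups at 65.4% and 65.4% in KCl and 71.4% and 64.3% in Control. The next such pair, chr2:24847944-24848089 with chr2:24852665-24852802, had 51.3% and 47.3% in KCl and 52.6% and 60.4% in Control. These did not overlap (log2 odds ratio −0.43, adjusted p = 0.95 in edgeR's test). Its inclusion reads in replicate 2, 96 in KCl and 131 in Control, equal cassette inclusion reads of chr2:24852665-24852802. Pair rows thus reuse cassette reads and do not show that the exons exclude each other. Further upstream in the gene, the alternative 3′ splice site at chr2:24863772-24863908 had shares of 85.1% and 95.8% in KCl and 100% and 86.6% in Control. The 5′ splice sites at chr2:24805074-24805241 and chr2:24886997-24887069 overlapped between groups as well, and the 557-base exon at chr2:24884146-24884702 was included in 99.8% of reads in both KCl libraries and in 100% in both Control libraries. The 5′ splice site at chr2:24824929-24825067 was used in 4.35% and 4.0% of reads in KCl and in none in Control, with too few reads for a test. The overlapping events of Ehmt1 had adjusted p-values of 0.978 to 0.995 in edgeR's test.

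The Suv39h pair differed in what could be measured. Suv39h1, on the minus strand at chrX:8061171-8074760, has a retained intron event of 362 bases at chrX:8063696-8064057. It had 8 of 69 and 17 of 68 reads as inclusion reads in KCl, against 7 of 100 and 4 of 50 in Control. The share was 11.6% and 25% in KCl and 7.0% and 8.0% in Control; both KCl libraries were higher, but they differed more from each other than KCl replicate 1 did from Control, and the log2 odds ratio of 1.42 (SE 0.87) had an adjusted p of 0.69. Its 663-base exon at chrX:8070588-8071250 was included in 99.7% and 99.4% of reads in KCl, with 1 and 2 skipping reads, and in 100% in both Control libraries. Suv39h2, on the minus strand at chr2:3455815-3474986, had few reads at its cassette exon of 146 bases at chr2:3472502-3472647. There were 12 inclusion and 19 skipping reads and 9 and 11 in the KCl libraries, against 8 and 13 and 3 and 9 in the Control libraries. The share was 38.7% and 45% in KCl and 38.1% and 25% in Control (adjusted p = 0.973). The gene model of Dclre1c also covers this exon, and since the sources used here do not say whether counting used strand, reads of the overlapping genes cannot be told apart.

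The promoters of the Suv39h pair are shown because the genes encode enzymes of the same reaction, and because H3K9me3 was counted around these start sites. The sequences are the 250 bases before a RefSeq start site on GRCm38.p6, read 5′ to 3′ on the strand of the gene, at chrX:8074761-8075010 and chr2:3474987-3475236, both on the minus strand. Suv39h1 has a second listed start site inside its gene model, whose promoter holds 25 CpG pairs against 11 in the one shown; the one outside the model was chosen. Capitals mark TGACGTCA (the cyclic AMP response element), CACGTG (the E-box) and GGGCGG (the GC box), searched on both strands, so that CCGCCC is a GC box on the other strand; no marked matches overlap each other.
Suv39h1: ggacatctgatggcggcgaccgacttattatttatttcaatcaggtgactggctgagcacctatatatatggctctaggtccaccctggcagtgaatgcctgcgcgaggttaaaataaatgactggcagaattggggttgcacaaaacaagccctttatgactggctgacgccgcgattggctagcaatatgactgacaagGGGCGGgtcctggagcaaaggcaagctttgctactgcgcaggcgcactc
Suv39h2: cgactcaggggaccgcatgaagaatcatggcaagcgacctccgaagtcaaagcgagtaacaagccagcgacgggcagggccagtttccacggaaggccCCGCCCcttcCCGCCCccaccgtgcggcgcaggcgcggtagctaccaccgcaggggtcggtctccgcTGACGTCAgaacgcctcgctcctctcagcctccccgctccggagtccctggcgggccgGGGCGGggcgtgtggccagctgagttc
Among 14 start sites of the 10 genes, TGACGTCA was found before 1, that of Suv39h2, where 1.92% of all 21263 promoters hold it. CACGTG was found before 3 (Ehmt2 at both sites, and Cbx5), against 6.63% of all promoters, and GGGCGG before 12, against 42.6%. The promoters held 7 to 36 CpG pairs, and 13 of the 14 were above the median of 10 over all promoters. A match describes these letters only.

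Setdb1 lies on the minus strand at chr3:95323525-95357202. Its largest event was a retained intron event at chr3:95337149-95339032, whose listed span of 1884 bases may take in exon sequence. Its share was 73.3% and 74.1% in KCl and 59.8% and 81.7% in Control, so the Control libraries lay on both sides of KCl (log2 odds ratio 0.09, adjusted p = 0.99). The alternative 3′ splice site at chr3:95339907-95340065 had 80.0% in both KCl libraries and 92.0% and 80.5% in Control, a gap of less than the spread in Control. Trim28, on the plus strand at chr7:13024152-13031032, has a retained intron event of 303 bases at chr7:13027833-13028135 with 4 of 144 and 0 of 226 inclusion reads in KCl, against 1 of 98 and 1 of 190 in Control. Intron reads of Trim28 were thus rare in every library, at 2.78% or less.

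Of the HP1 genes, Cbx5 had a cassette exon that was often skipped in every library. Its exon at chr15:103215022-103215121, 100 bases and not a multiple of 3, lies 231 bases after the internal RefSeq start site at position 103215352 of the minus strand. Its share was 62.7% and 67.5% in KCl and 66.7% and 70.6% in Control, overlapping between groups, with a log2 odds ratio of −0.24 and an adjusted p of 0.98. A 104-base form ending at position 103215125 had 63.3% and 65.8% in KCl and 65.9% and 69.4% in Control, which do not overlap but nearly touch. Cbx3 lies on the plus strand at chr6:51470154-51483704, and its 143-base exon at chr6:51475231-51475373 and 163-base exon at chr6:51478438-51478600 were included in nearly all of the 1274 or more reads per library. Taken as a mutually exclusive pair, the 143-base exon held 20.1% and 13.3% of reads in KCl and 22.1% and 14.0% in Control, with replicate 1 above replicate 2 in both groups. RefSeq names 6 pseudogenes of Cbx3, so reads of this gene are uncertain.

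No gene of the set passed the test of its level between KCl and Control. The level is the CPM of the best-covered event of a gene, relative to all such events of the library after TMM scaling, and it compares libraries but not genes. edgeR called 0 of the 8 genes measured in both replicates, as it called 0 of all 6114 (0%), with 0 members and 12.3% of all genes at an unadjusted p under 0.05. KCl was the higher in 6 of the 8 by fitted fold change, the median log2 fold change was 0.24 against 0.04 over all genes, and DESeq2, which called 55 of all genes, and limma also called 0 of the 8. The groups did not overlap for 2 of the 8 (43.3% of all genes), both with KCl higher (22.1% of all genes).

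Those 2 were the HP1 genes. Cbx3 had 2189 and 1420 CPM in KCl, against 1291 and 1233 CPM in Control, a log2 fold change of 0.52 (SE 0.40, adjusted p = 0.692), or 0.18 to 0.72 with 1 library left out. Cbx5 had 86.3 and 69.6 CPM in KCl, against 62.7 and 67.6 CPM in Control, a log2 fold change of 0.26 (SE 0.41, adjusted p = 0.888). For each, KCl replicate 1 was the highest library, and KCl replicate 2 lay nearer to Control than to KCl replicate 1. KCl replicate 1 was also the library with the lowest neuron and the highest astrocyte marker sum; the part of the marker differences in these levels was not tested.

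The remaining genes overlapped between groups. Among the methyltransferases, Ehmt2 had 332.0 and 221.9 CPM in KCl, against 255.7 and 217.9 CPM in Control, and Ehmt1 269.7 and 347.0 CPM in KCl, against 235.5 and 370.8 CPM in Control. Suv39h1 had 233.4 and 177.2 CPM in KCl, against 303.8 and 193.2 CPM in Control. Suv39h2, the gene with the fewest reads, had 21.2 and 11.3 CPM in KCl, against 14.6 and 6.44 CPM in Control, with a log2 fold change of 0.63 (SE 0.63) that ran from 0.13 to 1.32 with 1 library left out. Replicate 1 was above replicate 2 in both groups for Suv39h1, Suv39h2 and Ehmt2, and below it for Ehmt1, Setdb1 and Trim28. Setdb1 had 58.9 and 104.7 CPM in KCl, against 64.1 and 117.0 CPM in Control, and Trim28 had 98.6 and 127.9 CPM in KCl, against 68.3 and 102.0 CPM in Control. The adjusted p-values of these 6 genes were 0.783 to 0.993.

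**Figure D2:**
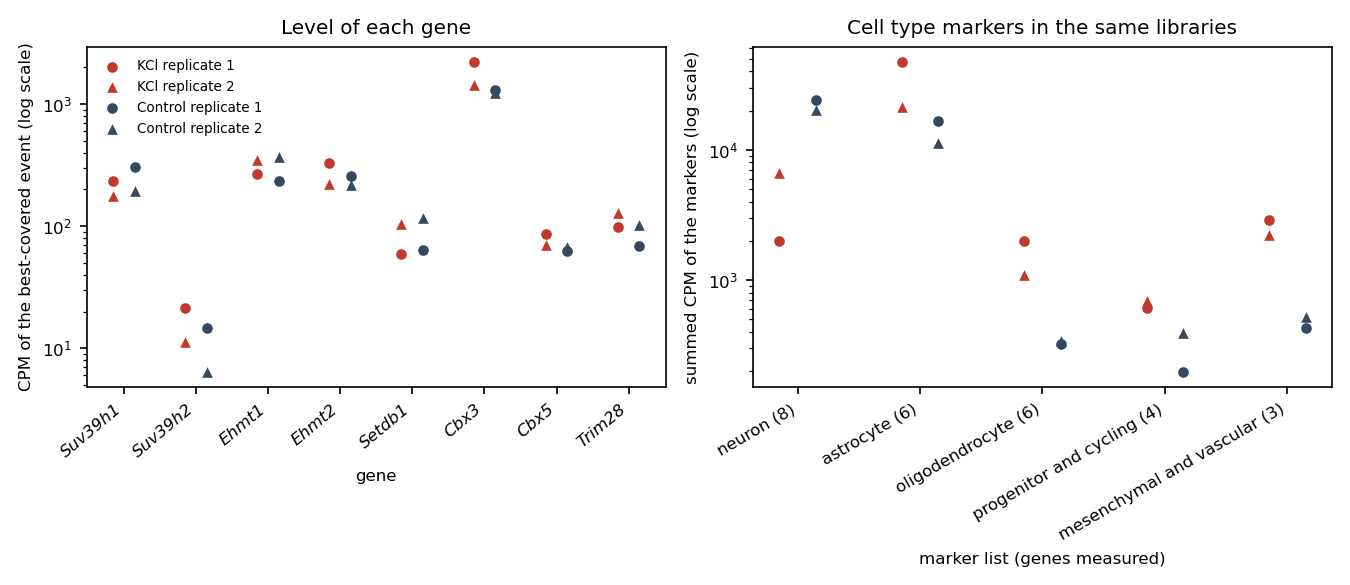
Left, the level of each gene in each library, as CPM of its best-covered event on a log scale; right, the summed CPM of the measured markers of 5 cell type lists, also on a log scale, with KCl in red left of Control in dark blue. The members overlap or nearly touch between groups, while the neuron marker sum is 1984 and 6695 CPM in KCl and 23980 and 20220 CPM in Control.

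Setdb2 and Cbx1 were measured in 1 replicate each, so their differences have no replicate check. Setdb2 had 56 reads in KCl replicate 1 against 6 in Control replicate 1, at an exon of 329 bases at chr14:59437437-59437765, which the gene model Gm45935 also covers. That is 15.4 against 1.68 CPM of all event reads of the library, a ratio of 9.14. Its 95% interval was 3.94 to 25.9 from counting error only. Of the 6527 events of replicate 1 with similar reads, 0.337% had a ratio as high. The skipping reads of the Setdb2 row were 2 in KCl and 0 in Control. The row may thus be listed only through the library where its reads are high, so this share does not show that its ratio is unusual. Cbx1 was measured in replicate 2 at 2 exons, at chr11:96800771-96800947 with 438 reads in KCl against 359 in Control, and at chr11:96801429-96801606 with 727 reads against 653. Scaled to event reads, the ratios were 1.41 (1.22 to 1.62) and 1.29 (1.15 to 1.43), values that 15.1% and 21.8% of events of similar reads reached. Both Cbx1 exons were included in 99.4% or more of reads in either library.

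Other genes of H3K9 methylation, its removal and its reading were read from the same fit as a list of 73, of which 47 were measured and 0 passed. Of the 47, 23 had a positive and 24 a negative log2 fold change, the median was 0.00, and the groups did not overlap for 21 (43.3% of all genes), with KCl higher in 12 and lower in 9 (22.1% and 21.2% of all genes), shares near those of all genes. Among those 12, Uhrf1, which reads H3K9 methylation and brings in the maintenance DNA methyltransferase, had 37.0 and 28.9 CPM in KCl, against 16.03 and 13.95 CPM in Control (log2 fold change 1.13, SE 0.48, adjusted p = 0.405). Incenp of the chromosomal passenger complex (1.01), Ezh2 of Polycomb (0.93), the centromeric histone Cenpa (0.84) and Gatad2a of the NuRD complex (0.69) followed. Uhrf1, Incenp, Ezh2 and Cenpa are known to be expressed in dividing cells, and the 4 progenitor and cycling markers Mki67, Nes, Pax6 and Top2a, whose sums are given above, were higher in KCl by fitted fold change; their part in these values was not tested. Among the 9, Mta3 of the NuRD complex had 8.21 and 24.3 CPM in KCl, against 36.2 and 67.6 CPM in Control (log2 fold change −1.66, SE 0.65, adjusted p = 0.381). Dnmt3a, a de novo DNA methyltransferase, had 1668 and 1963 CPM in KCl, against 3141 and 2869 CPM in Control (log2 fold change −0.73, SE 0.38, adjusted p = 0.484). Chd3 (−1.10), Zfp57 (−0.71) and the H3K9 demethylase Kdm4b (−0.54) were the others named. For splicing, edgeR called 0 of 97 events in 45 genes of the list, and 5 had an unadjusted p under 0.05 (5.2%, against 9.2% of all events).

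Over the gene bodies in the hippocampus, H3K9me3 lay below the typical level of the genome for all 10 genes in EE replicate 1 and HomeCage and for 9 in EE replicate 2. The median protein-coding body lay below that level as well. Suv39h1 had the lowest value in all 3 libraries, with Cbx1 close to it in HomeCage. The signal is the number of ChIP fragments per kb, divided by the median over 10 kb windows of the same library, so that 1 is the typical level of the genome in that library. The members had a median of 0.79 and 0.84 in EE and 0.66 in HomeCage. Over all 16853 protein-coding bodies of at least 5 kb the median was 0.90 and 0.98 in EE and 0.89 in HomeCage, with a 95th percentile of 1.93 and 1.68 in EE and 1.87 in HomeCage. No member reached that percentile in any library, and the single value above 1 was Trim28 in EE replicate 2, at 1.11 (exact Poisson interval 0.71 to 1.67). The members' upper bound lay below 1 for 6 and 4 of 10 in EE and for 8 of 10 in HomeCage. The share of all bodies with such a bound was not counted. Against the median of all bodies, 10 and 8 of the 10 members were lower in EE and 9 in HomeCage.

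Suv39h1 held 17 and 17 fragments in EE and 12 in HomeCage over 13.6 kb, an enrichment of 0.27 and 0.42 in EE and 0.40 in HomeCage. These are at the 3.2 and 4.8 percentile of protein-coding bodies in EE and the 5.6 percentile in HomeCage, so the gene was at the low end in all 3 libraries. The bins up to 10 kb to each side were low too, with a mean enrichment over the 3 libraries of 0.28 to 0.69, so the low signal was not limited to the gene. Suv39h1 is X-linked, and the part of that in its level was not tested. Its partner Suv39h2 had 0.87 and 0.83 in EE and 0.50 in HomeCage. Ehmt1, the longest body with 128.9 kb and 461 and 327 fragments in EE and 213 in HomeCage, gave the most precise value, at 0.78 and 0.85 in EE and 0.75 in HomeCage. Ehmt2 had 0.64 and 0.96 in EE and 0.96 in HomeCage, and the bin of 2 kb with the 102-base cassette exon, at chr17:34904463-34906462, held 4 and 8 fragments in EE and 7 in HomeCage. Setdb1 had 0.82 and 0.98 in EE and 0.74 in HomeCage, Setdb2 0.81 and 0.73 in EE and 0.70 in HomeCage, and Cbx5 0.71 and 0.69 in EE and 0.65 in HomeCage. No whole bin of 2 kb inside a member's body was at 2 or above in every library. The highest of these by the mean enrichment of the 3 libraries lay in Ehmt1, about 108 kb from its 5′ end. It had 14 and 9 fragments in EE and 13 in HomeCage. Within the 10 kb on each side such bins did occur. A bin downstream of Cbx3 had 3.48 and 5.5 in EE and 5.0 in HomeCage. A bin upstream of Setdb2 had 4.02 and 2.33 in EE and 2.955 in HomeCage.

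Around the 14 start sites, within 1 kb to each side, the pooled signal was 0.57 (0.44 to 0.71) and 0.69 (0.52 to 0.89) in EE and 0.44 (0.29 to 0.64) in HomeCage. Over all 21263 start sites the mean was 1.09 and 1.08 in EE and 0.99 in HomeCage, and the median was 0.87 and 1.0 in EE and 0.68 in HomeCage. These sums rest on 73 and 58 fragments in EE and 27 in HomeCage, and sites of the same gene can share fragments.

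**Figure D3:**
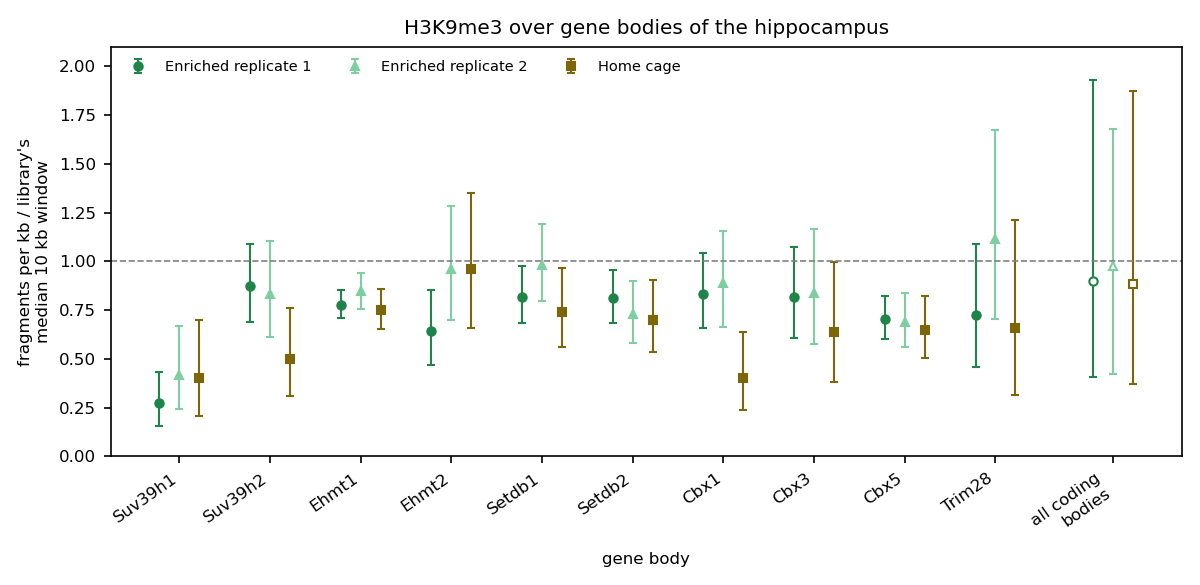
H3K9me3 over each gene body as fragments per kb in multiples of the library's median 10 kb window, with exact Poisson 95% intervals, for the 2 EE libraries (green) left of HomeCage (brown). Open symbols at the right give the median of 16853 protein-coding bodies with bars from the 5th to the 95th percentile; all members but 1 value lie below 1, and Cbx1 and Suv39h2 stand lower in HomeCage than in EE.

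Between EE and HomeCage, H3K9me3 over Cbx1, which encodes HP1 beta, was about 2 times as high in both EE libraries, but no member passed the test. The body of Cbx1, 20.3 kb at chr11:96788680-96808982, held 78 and 54 fragments in EE and 18 in HomeCage. Its enrichment was 0.84 and 0.89 in EE and 0.40 in HomeCage, a pooled ratio of 2.09 with a 95% interval of 1.27 to 3.64 from counting error only. Both EE libraries were at least 2 times HomeCage, which was so for 0.213% of the 23494 bodies tested. limma with voom weights gave a log2 ratio of 1.04 (SE 0.40, unadjusted p = 0.00977, adjusted p = 1). With 2 kb added on each side of the body, the log2 ratio was 0.69 (SE 0.35). Of the 10 whole bins of 2 kb in the body, 8 were higher in both EE libraries and 1 was lower in both, each bin with 14 fragments or fewer. A transcribed pseudogene, Gm11517, overlaps the model. Suv39h2 was next, with 77 and 48 fragments in EE and 21 in HomeCage, a ratio of 1.7 (1.06 to 2.84) and a log2 ratio of 0.74 (SE 0.39, unadjusted p = 0.0555, adjusted p = 1). Both EE libraries were higher, which was so for 35.6% of the 23494 bodies tested, and 5 of 9 whole bins were higher in both.

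Of the 8 members with a mean of at least 20 fragments, limma called 0, against 1 of 23494 bodies (0.00426%), and 1 member had an unadjusted p under 0.05, against 1.96% of all bodies. The log2 ratio was positive for 7 of the 8, against 11754 of the 23494 bodies, the exception being Ehmt2 (−0.36, SE 0.35). The median of the 8 was 0.17, against 0.00 over all bodies. Apart from Cbx1 and Suv39h2, the ratios ran from 0.79 for Ehmt2 to 1.31 for Trim28, each with an interval that includes 1. For Ehmt1, with the most fragments, the ratio was 1.05 (0.91 to 1.23). Of the list of 73 other genes, 67 were tested, 0 were called, 42 had a positive log2 ratio and the median was 0.08. HomeCage had 1 library, the shallowest, which the test assumes to vary as the EE libraries do, and depth and treatment cannot be told apart there. Nor can the fragment length of the tracks, which was 207 and 238 bases in EE and 285 bases in HomeCage.

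**Figure D4:**
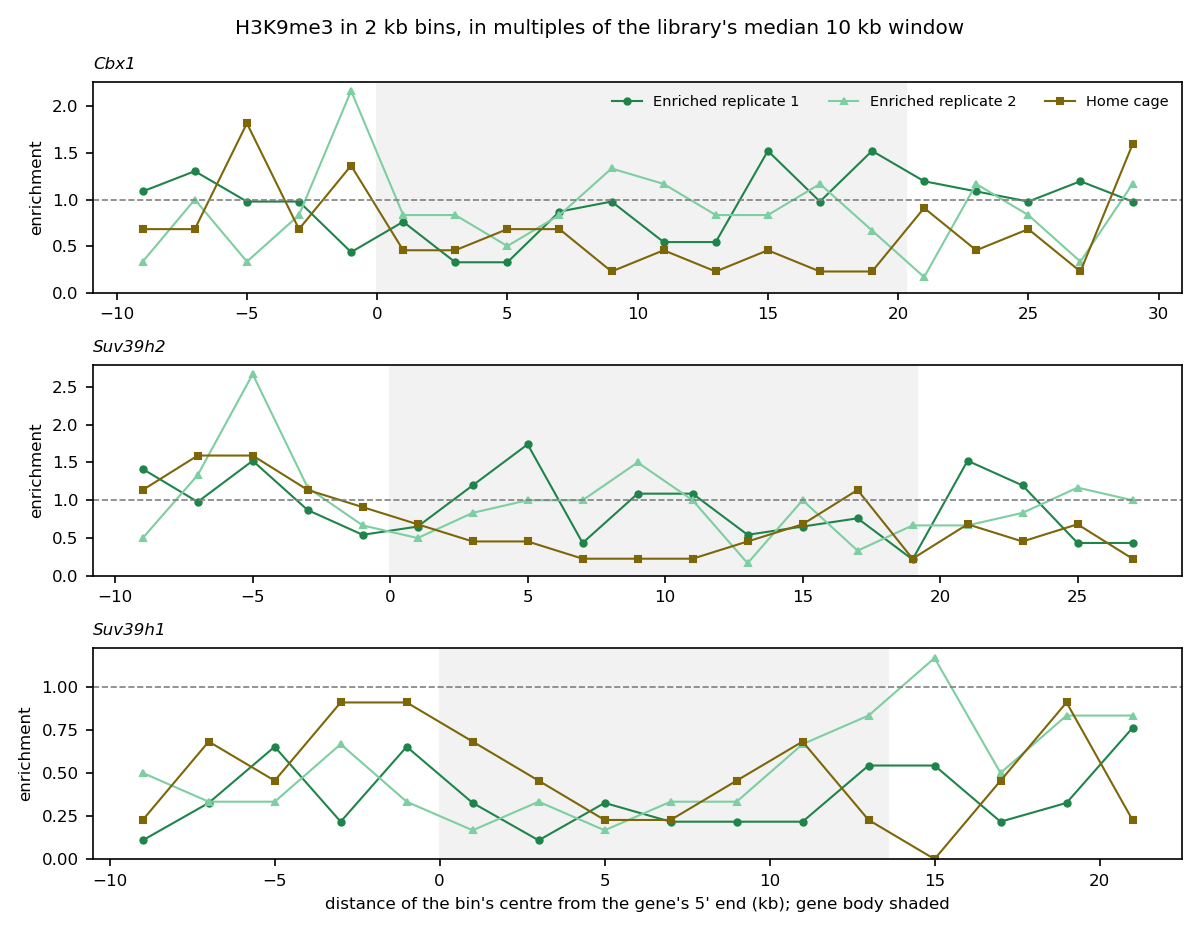
H3K9me3 in bins of 2 kb along Cbx1, Suv39h2 and Suv39h1 and 10 kb to each side, in multiples of the library's median 10 kb window, against the distance in kb from the 5′ end, for the EE libraries (green) and HomeCage (brown); the gene body is shaded. In Cbx1, both EE lines lie above HomeCage in 8 of the 10 whole bins of the body, and in Suv39h1 this holds for 0 of 6.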

How the data were processed

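RNA and H3K9me3 libraries were grouped by their titles. The authors deposited, per the file headers, whole-number counts of inclusion and skipping reads per splicing event, with p-values and FDRs of KCl against Control within a replicate number. They also deposited ChIP coverage as a signal track; its values are whole multiples of a smallest step (tolerance 0.01), from which fragments were recovered. CASAVA 1.7, BWA 0.7.12, TopHat2, MACS2 and the build mm10 come from the submitters' processing notes, which give no roles; for the event counter, its annotation and strand use, the sources used here give nothing.

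Events were joined over both tables by coordinates, counted from 1. Those sharing coordinates within either table were left out. Such sharing dropped 6 of 38 member rows in replicate 1 and 9 of 45 in replicate 2. The single replicate 1 row of the Ehmt1 exon at chr2:24852665-24852802 was also left out, as replicate 2 lists it on 2 rows. A further 4 and 9 were in 1 table only. Per-sample columns not used: 2. Splicing (counts of both forms, a term per library) and levels (both forms of the best-covered event, TMM) were tested with edgeR 4.0.16 in R 4.3.3, minimum mean 1 read, after Benjamini-Hochberg over all features at 0.05. DESeq2 1.42.0 and limma 3.58.1 were alternatives. With 2 libraries against 2, an exact permutation test of a single value cannot go below p = 0.333. For H3K9me3, at most 2 fragments per start were kept and counted by midpoint over protein-coding and lncRNA models of GRCm38.p6. Scaling used the median ratio over those 10 kb windows in the lower 75% of signal and tested with limma-voom, minimum mean 20 fragments. Intervals are exact at 95% and cover counting error only. The fits were tested on simulated data. For the RNA fits these had less spread between libraries than the real data, so they do not show how well the fits do here. Promoters are from RefSeq.

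All members are named; every member event with a mean of 10 reads is described; of the other genes, up to 5 per direction with the smallest p and no overlap. The members and lists were chosen with earlier results of these data known. Scripts ran in Python 3.11.15 with pandas 2.3.3, numpy 2.4.6, matplotlib 3.10.9 and scipy 1.17.1.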

Additional observations from a re-analysis of the deposited data

Results flagged for a closer look

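Setdb2 and Cbx1 were measured in 1 replicate each and entered no test. The Setdb2 exon at chr14:59437437-59437765 had a KCl over Control ratio of 9.14 in replicate 1, from 56 against 6 reads. The Cbx1 exons at chr11:96800771-96800947 and chr11:96801429-96801606 had ratios of 1.41 and 1.29 in replicate 2. They are listed because the lower bound of the counting interval lay above 1 in data that the comparisons do not use. Such an interval sets 1 library against 1 and covers counting error only. A ratio as high was reached by 0.337% of events of similar reads for Setdb2, but by 15.1% and 21.8% for the Cbx1 exons. The skipping reads of the Setdb2 row were in KCl only, so its share does not show that the ratio is unusual.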

How the results depend on the processing

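No splicing event, level or H3K9me3 body of the 10 genes passed the threshold under any alternative run. Over all features, replicate number as a block (replicate block) called 167 splicing events and 1259 gene levels, against 0 and 0 without it; it called 0 members and turned no member's direction. The labels do not tie the numbers to a shared culture: libraries of the same number deviated together in levels (r = 0.62 over 6114 genes) and hardly in inclusion (r = 0.06 over 10088 events). DESeq2 called 55 gene levels, and leaving out 1 library called 0 to 302 of them, with 302 without KCl replicate 2, 24 without Control replicate 2 and 3 without KCl replicate 1. The 1 H3K9me3 call over all bodies became 0 with scaling by the median of ratios and 0 at a minimum of 50 fragments. The cause was not tested for any of these.

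The 3 overlapping Ehmt2 events, both Suv39h events tested and both Cbx5 exons kept their direction under every alternative run, each library left out in turn included. So did the Ehmt1 exon of 64 bases, but its skipping reads were in KCl only, which fixes the direction. That exon has no value at a mean of at least 5 reads of each form. Directions turned for the Ehmt1 alternative 3′ splice site at 24863772-24863908 (−0.18 by DESeq2, −0.58 and −0.20 by limma with pseudocounts of 0.5 and 1) and the Trim28 retained intron (−0.39 and −0.23 by limma). The H3K9me3 log2 ratio of Cbx5 became −0.0037 with 2 kb added on each side. That of Cbx1 fell from 1.04 to 0.69 in the same run. With 1 library left out, log2 odds ratios ran from −3.98 to 1.21 for that Ehmt1 site, from −3.82 to 1.88 for the Trim28 intron and from −0.67 to 0.91 for the Setdb1 intron. In Ehmt1 they ran from −2.04 to 0.97 and from −0.13 to 0.91 for the 5′ splice sites at 24805074 and 24886997, and from −0.40 to 0.07 for the first mutually exclusive pair. In Cbx3 they ran from −0.53 to 0.27 for the pair, from −3.41 to 3.27 for the 143-base exon and from −0.75 to 0.73 for the 163-base exon. Log2 fold changes of levels ran from −0.27 to 0.39 for Ehmt1, −0.08 to 0.42 for Ehmt2, −0.69 to 0.35 for Setdb1 and −0.57 to 0.09 for Suv39h1. Log2 fold changes that kept their sign still moved widely, from 0.13 to 1.32 for Suv39h2, 0.18 to 0.72 for Cbx3 and 0.14 to 0.73 for Trim28. With 1 EE library left out, H3K9me3 had no test; no log2 ratio of the 8 bodies tested turned, but that of Suv39h1, which had too few fragments for the test, was −0.59 with EE replicate 1 alone and 0.04 with EE replicate 2 alone. Depth limits Suv39h2, Setdb2 and the Ehmt1 exon near 24887003, which rest on few reads.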
